A study of Rattus norvegicus with 20 samples.

Results

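Integrins, laminins and the adaptor proteins that join integrins to the cytoskeleton were followed in cultured rat epithelial cells before and after the cells had lived in mouse skin. The genes were taken by name, as every symbol that begins with Itga, Itgb, Lama, Lamb, Lamc, Parv, Tln, Kindlin or Fermt and has a probe set with that symbol alone. This gave 39 genes with 1 probe set each, out of 14506 symbols and 29215 probe sets on the array. Of these, 8 were integrin chains that bind laminin or collagen, 5 were integrin chains of receptors for RGD ligands such as fibronectin and latent TGF-beta, 7 were leukocyte and other integrin chains, 7 were laminin chains and 7 were adaptors. The other 5 (Itgb1bp1, Itgb1bp2, Itgb3bp, Itgbl1 and Tlnrd1) came in through their names and are not themselves integrins, laminins or named adaptors. The genes Itgb8 and Parvb were given with the rule as its leading genes.

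The cells came from oral mucosa, vagina, oesophagus, foot pad and trachea of Sprague-Dawley rats at postnatal day 200, of the green rat line CZ-004 SDTgN (act-EGFP)obsCZ-004, in which an actin-based promoter drives enhanced green fluorescent protein (EGFP) throughout the body. Each tissue had 2 arrays of bulk cells cultured before transplantation and 2 arrays of cells recovered after a first transplantation into skin and cultured again, so that 20 arrays fell into 10 groups. All cells were grown on irradiated 3T3-J2 mouse fibroblasts, and EGFP-positive cells were sorted before total RNA was extracted. For the recovered groups the cells were placed in newborn mouse skin that was grafted onto nude mice. The sort on EGFP is meant to leave out mouse feeder and host cells but keeps any rat cell, and no sort purity is given for these arrays. No label says how many rats or grafts a group represents.

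Integrins are receptors made of an alpha and a beta chain that span the cell membrane. Basal cells of stratified epithelia use them to hold on to laminin in the basement membrane, through hemidesmosomes that contain the Itga6 and Itgb4 chains and through focal adhesions that contain the Itgb1 chain. Talin and the kindlins bind the inner end of the beta chain and switch the receptor on, and the parvins sit with integrin-linked kinase and PINCH in the complex that joins it to actin. Receptors of epithelium formed by the Itgb6 and Itgb8 chains, are known for releasing active TGF-beta from its latent complex.

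The sequences upstream of Itgb8, Parvb and Itga5 are given because these genes carried the largest or most repeated changes described below. Each is the 250 bases before the RefSeq transcript start in the rat assembly GRCr8, in the direction of the gene. Capitals mark a GC box (GGGCGG) or a TEAD motif (GGAATG), searched on both strands.
Itgb8, chr6:146351246-146351495, minus strand: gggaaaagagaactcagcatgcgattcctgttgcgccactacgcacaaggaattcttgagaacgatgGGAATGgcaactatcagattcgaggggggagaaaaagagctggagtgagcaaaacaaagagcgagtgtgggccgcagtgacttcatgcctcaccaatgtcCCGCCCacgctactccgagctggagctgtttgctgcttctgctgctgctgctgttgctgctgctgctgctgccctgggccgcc
Parvb, chr7:117239988-117240237, plus strand: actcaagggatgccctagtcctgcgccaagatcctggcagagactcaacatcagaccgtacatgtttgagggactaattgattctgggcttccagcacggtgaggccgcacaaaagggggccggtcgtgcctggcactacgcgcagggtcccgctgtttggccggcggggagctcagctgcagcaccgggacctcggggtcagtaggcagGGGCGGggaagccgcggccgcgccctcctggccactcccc
Itga5, chr7:136381306-136381555, minus strand: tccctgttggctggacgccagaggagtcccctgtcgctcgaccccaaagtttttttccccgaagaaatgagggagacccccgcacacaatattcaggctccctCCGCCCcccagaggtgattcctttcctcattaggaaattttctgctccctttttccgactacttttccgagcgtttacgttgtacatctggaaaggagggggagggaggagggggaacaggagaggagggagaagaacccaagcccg
All 3 windows held a GC box, which began 83 bases before the start in Itgb8, 40 in Parvb and 147 in Itga5. Only the Itgb8 window of the 3 held the TEAD motif, at 183 bases, and none of them held the AP-1 motif TGANTCA. Of 33469 windows of this length in the table, 30.5% held the GC box, 12.1% the TEAD motif and 6.34% the AP-1 motif. Of the 29 members that the table holds, 15 had a GC box, 5 a TEAD motif and 1 an AP-1 motif. These matches are a description of the letters and were not tested as binding sites.

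Values are log2 RMA values of the array, so a difference of 1 is a 2-fold change, and levels of different genes are not compared because each probe set has its own brightness. A gene was called higher or lower where the adjusted p of limma, taken over all probe sets, was under 0.05 and the fold was over 2. Changes are given as after minus before ± SE of that fit. The p-values measure only the spread between the 2 cultures of a group, not that between rats or grafts. Duplicate arrays correlated at 0.991 to 0.996 over all probe sets, and the members differed between duplicates by a median of 0.10 and at most 0.70. Of the 6 measured markers of cultured stratified epithelium none had a mean below 4.77 in any group, with Krt14 at 13.05 to 13.33 and Tp63 at 9.03 to 10.05. Krt15 and Epcam rose in foot pad, and Krt15 fell in each of the other tissues. Of the foot pad markers, Krt1 (6.56 before and 8.73 after, at most 4.87 in other tissues) and Krt10 (7.30 and 7.88) were highest in foot pad, while Krt9, the keratin of sole skin, was no higher than 5.22. Pitx1 went the other way before transplantation, with its lowest mean in foot pad (5.99, beside 8.07 to 9.33 in other tissues), and stood at 8.61 there after. Tbx4 was 5.78 and 5.79 in foot pad, beside 5.30 to 6.08 in other tissues. Of the trachea markers, Krt8 (11.61 and 10.61), Krt18 (8.79 and 6.93) and Nkx2-1 (6.71 and 6.67) were highest in trachea at each stage, while Scgb1a1 and Foxj1 of differentiated airway cells stood at no more than 4.12 and 6.19 there. The file gives no detection call, and 13 of the 39 members had a mean below 4.77, the level under which the lowest 40% of probe sets lie. None of these 13 was called in any test.

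After transplantation, 7 of the 39 genes were called in 1 or more tissues, 17.9% of them against 14.3% of all symbols. Parvb, Itga5, Itga1, Itga2 and Itgb7 fell in at least 1 tissue, and Itgb8 and Fermt1 rose. In oral mucosa 1 member rose and 2 fell, where 1.91% and 3.07% of all symbols did. In vagina none rose and 3 fell (0.620% and 2.41% of all symbols). In oesophagus none was called in either direction (0.572% and 0.765% of all symbols). In foot pad 2 rose and 3 fell (5.25% and 4.02% of all symbols), and in trachea none rose and 2 fell (0.627% and 0.972% of all symbols). With 39 members these shares rest on a few genes each. The median change of the members was 0.07 in oral mucosa, −0.04 in vagina, −0.03 in oesophagus, −0.14 in foot pad and 0.01 in trachea, beside medians over all symbols of 0.05, 0.04, −0.01, −0.06 and 0.00.

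**Figure D1:**
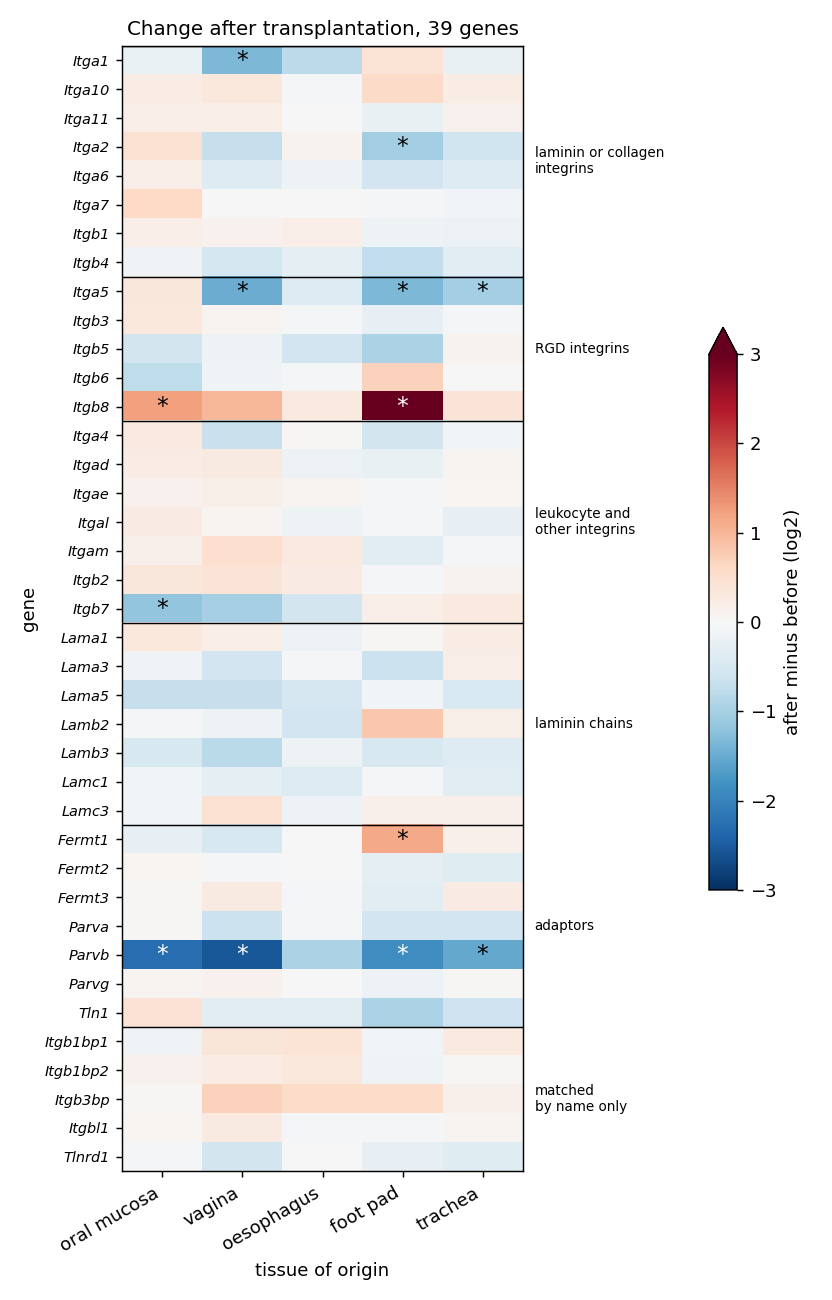
Change after minus before (log2, colour) of the 39 genes (one per line, grouped by role) in cells of the 5 tissues (columns), with a star where the gene was called by limma. Itgb8 in foot pad, at 4.19, lies past the end of the colour scale, and Parvb is blue in every tissue, from −0.94 in oesophagus to −2.54 in vagina.

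Many smaller decreases passed the adjusted p without the fold limit. In vagina 15 members were lower and 4 higher by adjusted p alone, where 15.2% and 10.6% of all symbols were. In foot pad 12 were lower and 7 higher (20.2% and 18.9% of all symbols), and in trachea 12 lower and 1 higher (11.8% and 7.10%). In oesophagus 9 were lower and 1 higher (9.44% and 8.64%). In oral mucosa 6 were lower and 4 higher (15.6% and 11.2%), close to the share of all symbols. The members leaned to decreases in vagina, oesophagus, foot pad and trachea by this count, with 23.1% to 38.5% of them lower.

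Itgb8, the beta chain that pairs with the alpha-v chain and binds latent TGF-beta, showed the largest change of any member. It stood at 4.48 on both foot pad arrays before and at 8.65 and 8.68 after. The oral mucosa arrays read 4.52 and 4.04 before and 5.53 and 5.51 after, and those of vagina 4.66 and 4.62 before and 5.65 and 5.61 after. The arrays before and after did not overlap in these 3 tissues. In oesophagus Itgb8 stood at 4.98 and 4.47 before and at 4.94 and 5.08 after, so that the groups overlapped, and in trachea at 4.49 and 4.46 before and 4.83 and 4.88 after, without overlap.

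Before transplantation every Itgb8 mean lay below the level of 4.77 that marks the lowest 40% of probe sets, and no difference between tissues passed the test (adjusted p = 0.166). In foot pad Itgb8 then rose by 4.19 ± 0.15, or 18.2-fold (adjusted p = 1.93e-10), from a level among the dim probe sets. It rose by 1.24 ± 0.15 in oral mucosa (2.36-fold, adjusted p = 3.53e-05). The change was 0.99 ± 0.15 in vagina (adjusted p = 0.000378), just under the fold limit, 0.38 ± 0.15 in trachea (adjusted p = 0.123) and 0.29 ± 0.15 in oesophagus (adjusted p = 0.280). Among recovered cells the means ran from 8.67 in foot pad through 5.63 in vagina, 5.52 in oral mucosa and 5.01 in oesophagus to 4.85 in trachea. The foot pad mean was 3.41 ± 0.12 above that of the other 4 tissues (adjusted p = 1.06e-10), and the neighbours vagina and oral mucosa, and oesophagus and trachea, lay within 0.2 of each other. The oral mucosa change was 0.998 without replicate 2 of its cells before transplantation, which ended the call. Itgb8 also stands on a gene list that the study drew up against whisker follicle cells from data that include these arrays. The study reports that it was lower than in follicle cells in all its other tissues before transplantation. Among recovered cells the study still names it as differing from follicle cells in all of them. That comparison is other than after against before, and the choice of this gene was not independent of the data.

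Of melanocyte markers, 3 of 5 were measured, and Mitf rose with Itgb8 in foot pad from 4.94 to 6.81. Tyrp1 was 3.79 before and 3.59 after there, and Sox10 5.61 and 5.68. The mean of the 3 markers was 4.69 to 4.88 on the foot pad arrays before and 5.32 to 5.40 after. Its part in the Itgb8 result was not tested.

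**Figure D2:**
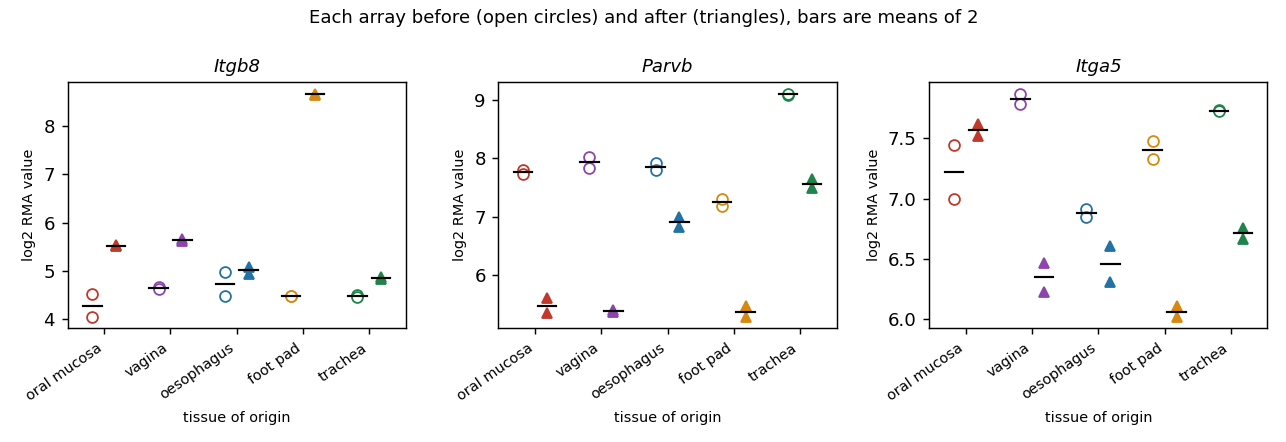
Log2 RMA value of Itgb8, Parvb and Itga5 on each of the 20 arrays by tissue of origin, before (open circles) and after (filled triangles), with the mean of 2 arrays as a bar. Itgb8 stands apart on the foot pad arrays after, at 8.65 and 8.68, Parvb is lower after in each tissue, and Itga5 is lower after in all tissues but oral mucosa.

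Parvb, beta-parvin of the complex that links integrins to actin, was the member that fell in most tissues. It stood at 7.80 and 7.73 in oral mucosa before and at 5.61 and 5.35 after. The vagina arrays read 7.83 and 8.03 before and 5.37 and 5.40 after, and those of foot pad 7.19 and 7.31 before and 5.47 and 5.28 after. These 3 tissues reached nearly the same low level. Parvb stayed higher in oesophagus, at 7.92 and 7.79 before and 6.83 and 7.00 after. In trachea it was 9.08 and 9.11 before and 7.64 and 7.48 after, the highest of the 5 tissues at either stage.

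The change of Parvb was −2.54 ± 0.11 in vagina (5.83-fold lower, adjusted p = 3.30e-09), −2.28 ± 0.11 in oral mucosa (4.87-fold, adjusted p = 1.01e-08), −1.87 ± 0.11 in foot pad (3.66-fold, adjusted p = 1.87e-08) and −1.53 ± 0.11 in trachea (2.89-fold, adjusted p = 1.22e-06). In oesophagus the change was −0.94 ± 0.11 (adjusted p = 9.67e-05), under the fold limit, and it passed without replicate 2 of either stage, at −1.01 and −1.03. Trachea was above the mean of the other 4 tissues by 1.39 ± 0.09 before (adjusted p = 1.01e-07) and by 1.77 ± 0.09 after (adjusted p = 9.15e-09). Before transplantation the order was trachea, vagina (7.93), oesophagus (7.86), oral mucosa (7.77) and foot pad (7.25), where the middle 3 lay within 0.2 of each other. Averaged over the 5 tissues, with the spread between tissues as the error, the change was −1.84 ± 0.23, and its adjusted p over all probe sets was 0.302.

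Keratins of lining and simple epithelia moved on the same arrays. Of the 5 markers of oral and oesophagus lining, 4 fell in oral mucosa, with Krt4 from 11.96 to 5.33 and Krt13 from 13.04 to 9.34, and 2 fell in vagina and 2 in oesophagus. Their mean was 10.18 to 10.23 on the oral mucosa arrays before and 7.42 to 7.55 after. In foot pad, where Parvb changed by −1.87, 2 of these lining markers rose and 1 fell. None of them was called in trachea, where Parvb changed by −1.53. Of the 5 trachea markers, Krt8 and Krt18 fell in oral mucosa (9.17 to 7.71 and 8.14 to 5.47) and in vagina (10.61 to 7.17 and 6.88 to 5.44), and Krt18 fell in trachea (8.79 to 6.93). None of the 5 trachea markers was called in oesophagus or foot pad. The part of lining and simple epithelial cells in the decreases of Parvb, and of Itgb7 below, was not tested.

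The other parvins passed the fold limit in no tissue. Parva, alpha-parvin, changed by −0.66 ± 0.08 in vagina, −0.58 ± 0.08 in foot pad and −0.58 ± 0.08 in trachea, with adjusted p of 8.06e-05, 8.15e-05 and 0.000382 and under the fold limit in each, and by 0.03 and −0.04 in oral mucosa and oesophagus. Parvg, the form of blood cells, stayed between 4.55 and 4.79 in all groups. Tln1, talin, changed by −0.95 ± 0.10 in foot pad (adjusted p = 2.80e-06), −0.63 ± 0.10 in trachea and 0.43 ± 0.10 in oral mucosa, also under the fold limit. Fermt1, the kindlin of keratinocytes, was 5.48 and 6.18 in foot pad before and 7.08 and 6.86 after. It rose there by 1.14 ± 0.17 (2.20-fold, adjusted p = 9.87e-05), from a level (−1.03) below the mean of the other tissues to within their range. On the same foot pad arrays the epithelial markers Epcam (7.77 to 10.76) and Krt15 (7.38 to 10.78) rose, and Cdh1 changed by 0.73 (adjusted p = 4.31e-06). Krt14 went from 13.30 to 13.33, Tp63 from 9.81 to 9.54 and Col17a1 from 11.14 to 10.60, and none of these was called. The mean of the 6 epithelial markers was 9.85 to 9.88 before and 10.89 to 10.97 after. Their part in the Fermt1 change was not tested. Without replicate 1 before transplantation, the lower of the pair, the Fermt1 change was 0.79 and no longer called. Fermt2 lay between 7.83 and 8.49 and Fermt3, the blood cell form, between 4.84 and 5.28 over the groups.

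Itga5, which pairs with Itgb1 as the classical fibronectin receptor, fell in 3 tissues. Its values were 7.87 and 7.79 in vagina before and 6.23 and 6.47 after. In foot pad they were 7.33 and 7.48 before and 6.02 and 6.11 after, and in trachea 7.74 and 7.72 before and 6.76 and 6.67 after. The stages did not overlap in any of these tissues. The decrease was 2.80-fold in vagina (−1.48 ± 0.14, adjusted p = 4.44e-06), 2.54-fold in foot pad (−1.34 ± 0.14, adjusted p = 3.17e-06) and 2.02-fold in trachea (−1.02 ± 0.14, adjusted p = 0.000230). The trachea change was −0.97 without replicate 2 of the recovered cells and then under the fold limit. In oesophagus Itga5 changed by −0.42 ± 0.14 (adjusted p = 0.0607) and in oral mucosa by 0.35 ± 0.14 (adjusted p = 0.0932). Recovered oral mucosa cells, at 7.57, were 1.17 ± 0.11 above the mean of the other 4 tissues (adjusted p = 2.98e-06).

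Fibroblast markers moved in the same 3 tissues. Of 10 measured, 6 fell in vagina, 8 in foot pad and 7 in trachea and none rose there, while in oesophagus none was called and in oral mucosa Vim alone rose, from 6.48 to 11.58. The mean of the 10 markers was 7.15 to 7.32 on the vagina arrays before and 5.44 on both after, 7.47 to 7.48 and then 5.68 to 5.75 in foot pad, and 7.25 to 7.40 and then 5.76 to 5.81 in trachea. In oral mucosa it was 5.61 to 5.69 before and 6.23 to 6.27 after, and in oesophagus 5.40 to 5.57 and then 5.49 to 5.50. The defining collagen Col3a1 went from 8.43 to 5.80 in vagina, from 7.93 to 5.59 in foot pad and from 8.25 to 5.76 in trachea. The number of these markers below the level of 4.77 was 1 to 4 in the groups before and 3 or 4 in those after. In oral mucosa, where Parvb changed by −2.28, none of the 10 was called lower, and Thy1 went from 6.05 to 5.48 (adjusted p = 0.0404). Of 5 muscle markers, Tagln fell in vagina (6.82 to 5.59) and trachea (7.59 to 6.30) and rose in oral mucosa (5.09 to 6.35). None of the 5 was called in foot pad or oesophagus. In bulk RNA, fewer cells of a type and less RNA per cell cannot be told apart. The part of fibroblasts or muscle cells in the decreases of Itga5, Itga1, Parva and Parvb was not tested.

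Of the collagen-binding chains, Itga1 passed the fold limit in vagina and Itga2 in foot pad, and both had smaller changes elsewhere. Itga1 was 6.94 and 7.13 in vagina before and 5.76 and 5.61 after, a change of −1.35 ± 0.13 (2.55-fold lower, adjusted p = 4.62e-06). Before transplantation vagina stood at 1.11 ± 0.10 and foot pad at −1.09 ± 0.10 relative to the other 4 tissues for Itga1, and after it no tissue was called against the others. The change of Itga1 was −0.78 ± 0.13 in oesophagus (adjusted p = 0.000937) and 0.42 ± 0.13 in foot pad (adjusted p = 0.0191), under the fold limit. Itga2, the collagen receptor chain of keratinocytes, was 8.94 and 9.19 in foot pad before and 8.14 and 7.92 after. It changed there by −1.03 ± 0.12 (2.05-fold lower, adjusted p = 1.08e-05), which was just past the fold limit, and by −0.91 and −0.93 without replicate 2 before or after. Itga2 changed by −0.69 ± 0.12 in vagina, −0.60 ± 0.12 in trachea and 0.45 ± 0.12 in oral mucosa, each past the adjusted p but under the fold limit.

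The chains that hold epithelium to laminin passed the fold limit in no tissue. Itgb1, the partner of most alpha chains here, ranged from 11.67 to 12.13 over the groups and changed by −0.18 to 0.19. Itgb4 of the hemidesmosome was lower after in all 5 tissues, with changes of −0.75 ± 0.07 in foot pad (11.91 to 11.16, adjusted p = 1.35e-06), −0.53 ± 0.07 in vagina, −0.33 ± 0.07 in trachea and −0.29 ± 0.07 in oesophagus, each past the adjusted p but under the fold limit, and of −0.11 ± 0.07 in oral mucosa (adjusted p = 0.276). Its partner Itga6 changed by −0.58 ± 0.08 in foot pad, −0.40 ± 0.08 in trachea, −0.38 ± 0.08 in vagina and 0.21 ± 0.08 in oral mucosa. Itga7, a laminin receptor chain known from muscle, stayed between 4.62 and 5.37, Itga10 between 4.53 and 5.50 and Itga11 between 4.28 and 4.86.

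Itgb6 and Itgb5, the other epithelial chains of alpha-v receptors, were not called in any tissue but differed between tissues. Itgb6 changed by −0.75 ± 0.09 in oral mucosa (8.23 to 7.47) and by 0.68 ± 0.09 in foot pad (7.18 to 7.86), and by −0.10 to 0.01 elsewhere. Itgb5, a vitronectin receptor chain, changed by −0.94 ± 0.09 in foot pad (9.14 to 8.20, adjusted p = 1.43e-06), just under the fold limit, by −0.57 ± 0.09 in oesophagus and by −0.55 ± 0.09 in oral mucosa. Recovered foot pad cells then stood at −1.12 ± 0.07 relative to the other 4 tissues for Itgb5 (adjusted p = 3.03e-08). Itgb3, the platelet and endothelial chain, stayed between 4.61 and 4.96.

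Among the chains of leukocyte integrins, Itgb7 fell in oral mucosa. It was 6.35 and 6.15 there before and 4.95 and 5.21 after, a change of −1.17 ± 0.16 (2.26-fold lower, adjusted p = 0.000113). In vagina Itgb7 was −0.99 ± 0.16 (adjusted p = 0.000680), under the fold limit, and −1.27 without replicate 1 before transplantation, which passed it. Its alpha partners Itga4 and Itgae lay between 3.05 and 3.84 and between 3.91 and 4.17 over all groups, among the dim probe sets. Itga4 changed by −0.67 ± 0.16 in vagina (adjusted p = 0.00894) and −0.55 ± 0.16 in foot pad (adjusted p = 0.0162), under the fold limit. Itgb2, Itgal, Itgam and Itgad, chains of the leukocyte beta-2 receptors, lay between 3.43 and 5.08. Of 10 leukocyte markers 6 or 7 were below the level of 4.77 in every group, Ptprc among them at 3.28 to 3.78. In oral mucosa Cd68 fell from 7.89 to 5.93 and Cd74 rose from 5.75 to 7.07, and the mean of the 10 markers was 4.50 to 4.66 on the arrays before and 4.64 to 4.66 after. In vagina Cd68 fell from 6.54 to 5.47. The part of such cells in the Itgb7 changes was not tested.

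**Figure D3:**
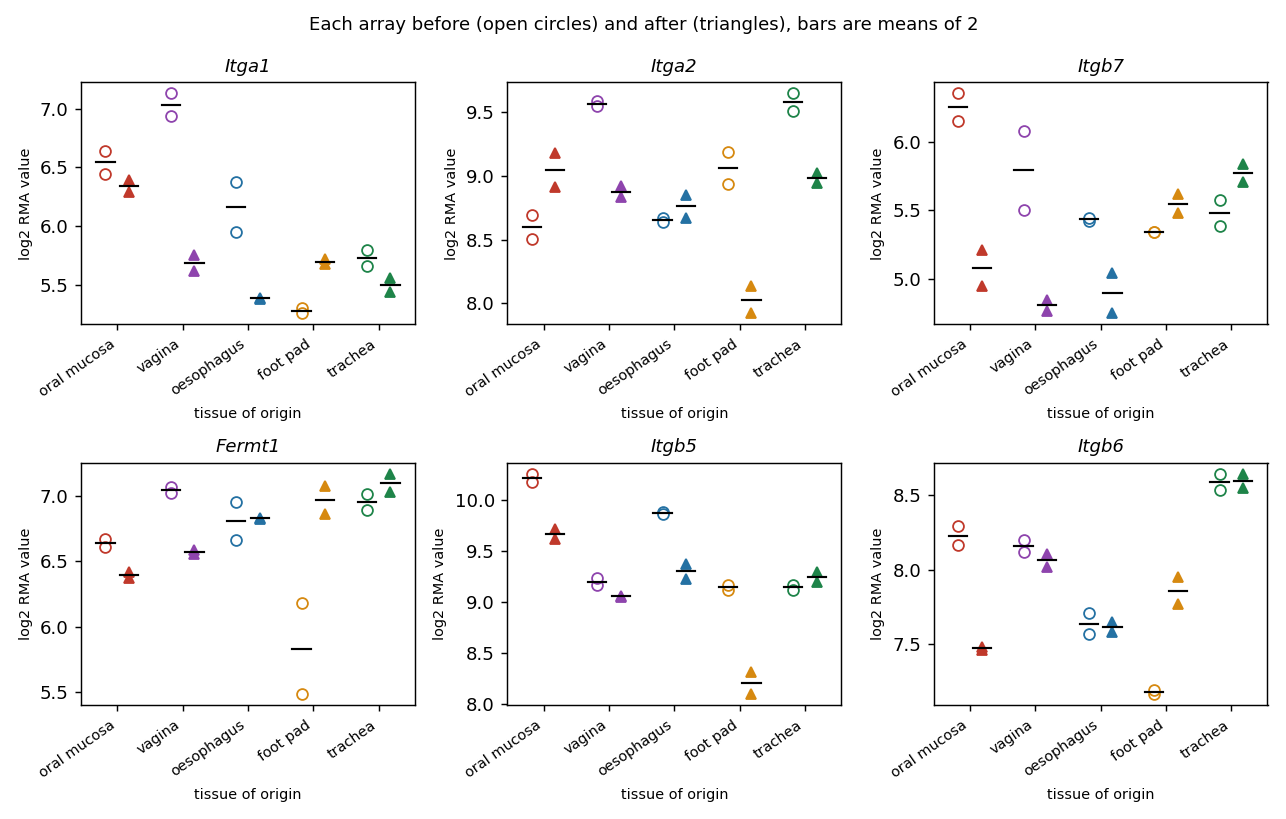
Log2 RMA value of Itga1, Itga2, Itgb7, Fermt1, Itgb5 and Itgb6 on each array by tissue of origin, before (open circles) and after (filled triangles), with the mean of 2 arrays as a bar and an axis of its own for each gene. Itga1 is highest in vagina before (6.94 and 7.13), Fermt1 lowest in foot pad before (5.48 and 6.18) and Itgb5 lowest in foot pad after (8.09 and 8.31).

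No laminin chain was called after against before. Lama5, the chain of the broadly expressed epithelial laminins, changed by −0.69 ± 0.08 in both oral mucosa (9.41 to 8.72, adjusted p = 1.49e-05) and vagina (8.94 to 8.25, adjusted p = 2.44e-05), by −0.50 ± 0.08 in oesophagus and −0.45 ± 0.08 in trachea, and by −0.09 ± 0.08 in foot pad. Lamb3, a chain of the laminin that hemidesmosomes bind, changed by −0.81 ± 0.08 in vagina (11.50 to 10.68, adjusted p = 1.05e-05), −0.49 ± 0.08 in oral mucosa, −0.48 ± 0.08 in foot pad and −0.39 ± 0.08 in trachea. Both had lower means after in all 5 tissues, as had Lamc1, the gamma chain of most laminins, with changes from −0.05 to −0.42. Lama5 in foot pad (adjusted p of limma = 0.447) and Lamb3 in oesophagus (−0.14 ± 0.08, adjusted p = 0.331) did not pass. Nor did Lamc1 in foot pad (adjusted p = 0.719) and oral mucosa (adjusted p = 0.567). Lama3, the alpha chain that joins Lamb3, changed by −0.65 ± 0.12 in foot pad and −0.58 ± 0.12 in vagina but by 0.19 ± 0.12 in trachea (adjusted p = 0.380). Lamb2 went the other way in foot pad, at 0.81 ± 0.12 (7.96 to 8.77, adjusted p = 9.98e-05), and changed by −0.56 ± 0.12 in oesophagus, where recovered cells stood at −1.08 ± 0.09 relative to the other 4 tissues (adjusted p = 2.99e-06). Lama1 and Lamc3 stayed between 4.38 and 5.01.

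**Figure D4:**
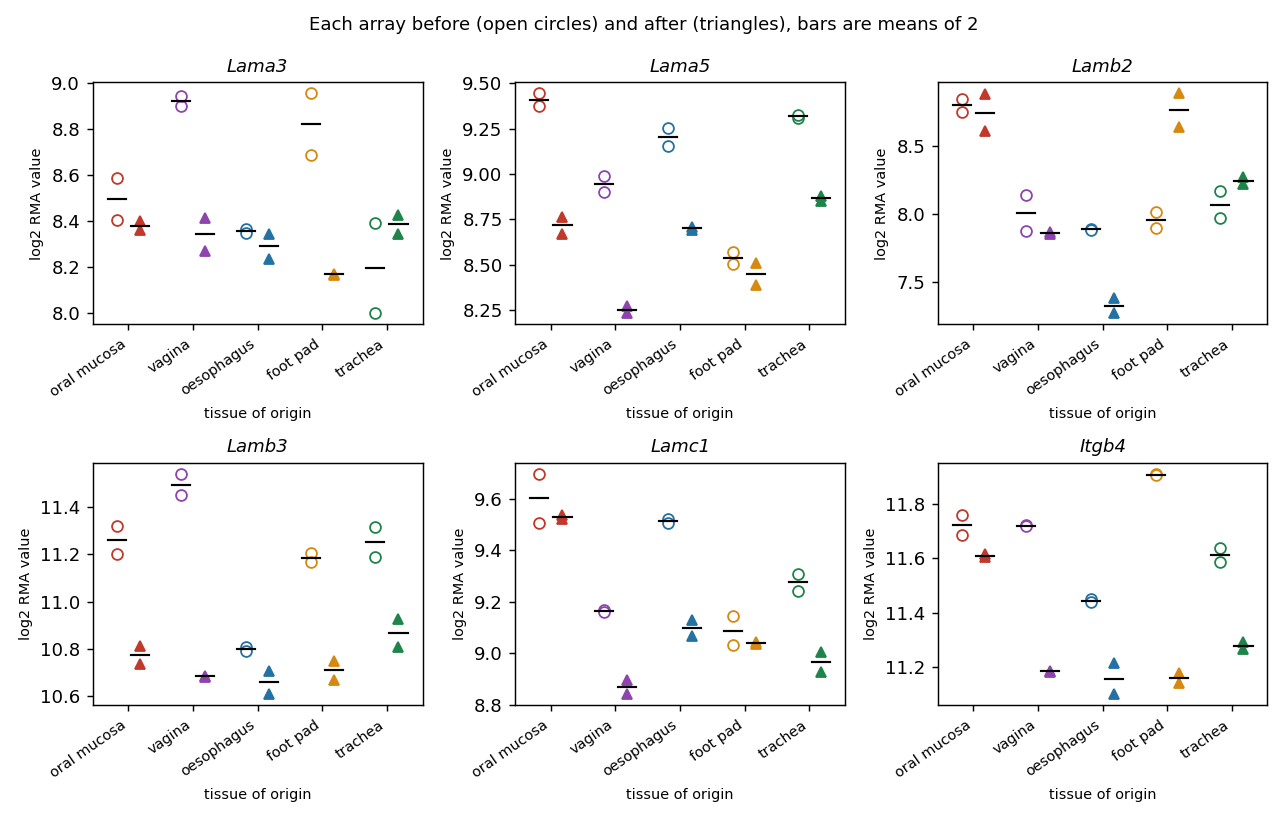
Log2 RMA value of 5 laminin chains and Itgb4 on each array by tissue of origin, before (open circles) and after (filled triangles), with the mean of 2 arrays as a bar and an axis of its own for each gene. Lama5, Lamb3, Lamc1 and Itgb4 have lower means after in all 5 tissues, and Lamb2 has a higher mean after in foot pad (8.77) and a lower one in oesophagus (7.32).

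Differences between tissues were tested with an F test at each stage. Before transplantation 5 members differed (Fermt1, Itga1, Itgb5, Itgb6 and Parvb), 12.8% beside 12.2% of all symbols. After it 9 differed (Itga2, Itga5, Itgb3bp, Itgb5, Itgb6, Itgb8, Lamb2, Parvb and Tln1), 23.1% beside 15.6% of all symbols. Foot pad had the most calls of the 5 tissues over all symbols. Without the foot pad arrays 3 members differed before (Itga1, Itgb5 and Parvb), 7.69% beside 8.38% of all symbols, and 5 after (Itga5, Itgb3bp, Itgb6, Lamb2 and Parvb), 12.8% beside 9.27%. Itgb6 was highest in trachea at both stages (8.59 and 8.59) and lowest in foot pad before (7.18) and in oral mucosa after (7.47). Itgb3bp, a nuclear protein named for a link to the Itgb3 tail, ranged after from 4.57 in oral mucosa to 5.83 in vagina. In single tissues against the other 4, 3 members were called before (Fermt1, Itga1 and Parvb) and 5 after (Itga5, Itgb5, Itgb8, Lamb2 and Parvb), where 7.16% and 8.30% of all symbols were.

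The response itself differed between tissues for 11 members, 28.2% beside 24.0% of all symbols. These were Fermt1, Itga1, Itga2, Itga5, Itgb5, Itgb6, Itgb7, Itgb8, Lamb2, Parvb and Tln1. Without foot pad 6 were called, namely Itga1, Itga2, Itga5, Itgb7, Parvb and Tln1, 15.4% beside 12.0% of all symbols. Parvb thus differed in the size of its decrease, from −0.94 in oesophagus to −2.54 in vagina (adjusted p = 1.33e-05), and not in its direction. Itgb6, Itga2 and Tln1 had changes of opposite sign in oral mucosa and foot pad, and for each of them both changes passed the adjusted p. When the spread between the 5 tissues was the error, 0% of all symbols and none of the members passed the adjusted p of limma. At an unadjusted p under 0.05 there were 12 members, 4 higher and 8 lower, beside 11.9% of all symbols.

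The 27 members called by no test of any kind split into the 13 dim ones, whose group means lay between 3.05 and 5.08 and whose changes lay between −0.67 and 0.50, and 14 others with changes from −0.81 to 0.60. Of those matched by name only, Itgb1bp1, a protein that binds the Itgb1 tail, changed by 0.41 ± 0.09 in oesophagus and 0.37 ± 0.09 in vagina, and Tlnrd1 by −0.54 ± 0.11 in vagina. Itgb1bp2 and Itgbl1 were among the dim members.

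Other genes of cell adhesion were taken from lists of hemidesmosome, focal adhesion and basement membrane genes, integrin ligands and other matrix receptors, of which 76 were measured. In foot pad 7 rose and 11 fell, 9.21% and 14.5% beside 5.25% and 4.02% of all symbols. In oral mucosa 4 rose and 4 fell, 5.26% each beside 1.91% and 3.07%. In vagina none rose and 4 fell (5.26% beside 2.41%), in trachea none rose and 5 fell (6.58% beside 0.972%), and in oesophagus 2 rose and 1 fell (2.63% and 1.32% beside 0.572% and 0.765%). Their median change was −0.26 in vagina, −0.24 in foot pad, −0.20 in trachea, −0.13 in oesophagus and 0.10 in oral mucosa. Of 32 focal adhesion genes 7 fell in foot pad (21.9% beside 4.02% of all symbols), led by Actn1 (−1.42), an actin crosslinker, and Fhl2 (−1.25), and 2 rose (6.25% beside 5.25%), Lims2 (2.80), a PINCH protein that sits in the same complex as the parvins, and Tns1 (1.47), a tensin. Lims2 went the opposite way in oral mucosa, at −2.70 ± 0.27 (adjusted p = 5.63e-06), and in oesophagus, at −1.13 ± 0.27 (adjusted p = 0.0131). Tns1 also fell in oral mucosa (−1.19) and in vagina (−1.35).

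Of 18 ligands, 2 rose and 1 fell in foot pad (11.1% and 5.56% beside 5.25% and 4.02% of all symbols). In oral mucosa 3 rose and 1 fell (16.7% and 5.56% beside 1.91% and 3.07%). In vagina 2 fell (11.1% beside 2.41%), in trachea 2 fell (11.1% beside 0.972%) and in oesophagus 1 rose (5.56% beside 0.572%). Among them Spp1 (osteopontin) rose in foot pad from 6.89 to 10.72 and in oral mucosa from 6.05 to 7.18, and fell in vagina (−1.39) and trachea (−1.04). Thbs1 (thrombospondin), which can release TGF-beta from its latent form, rose in oesophagus from 7.94 to 9.94, in foot pad (1.87) and in oral mucosa (1.78). Tgfb3 rose in oral mucosa from 5.47 to 7.89, and Tgfb2 fell in vagina from 6.84 to 5.40. Of 11 basement membrane genes none rose in any tissue, 3 fell in foot pad (27.3% beside 4.02% of all symbols) and 1 each in vagina and trachea. Bgn (biglycan) fell in trachea (−2.25), foot pad (−2.02) and vagina (−1.73), the tissues in which the fibroblast markers fell. Tinagl1 also fell in foot pad, from 11.13 to 9.11, with Nid2 (−1.06). Of 12 other matrix receptors and their partners, 3 rose in foot pad (25.0% beside 5.25% of all symbols) and none fell. In oral mucosa 1 rose and 1 fell (8.33% each beside 1.91% and 3.07%). In oesophagus 1 rose (8.33% beside 0.572%), in trachea 2 fell (16.7% beside 0.972%), and in vagina none was called. Among them Cd63, a tetraspanin, rose in foot pad (1.36), oesophagus (1.28) and oral mucosa (1.17) and fell in trachea (−1.16). None of the 3 hemidesmosome genes outside the members was called in any tissue.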

How the data were processed

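The deposited table holds log2 expression values that the authors made with RMA in Affymetrix Expression Console (versions not given in the sources used here). RMA corrects background, quantile-normalizes the arrays and summarizes probes, which can compress the folds of dim probe sets. All 20 value columns were matched to samples. Probe sets were named from the platform annotation given with the data. One further probe set carries Lamc3 together with another gene and was not used. Groups came from the tissue and transplantation labels. Sample titles carry unexplained Roman numerals, a notation the study uses for passages. Outside vagina they differ between the stages, and a difference of passage was not tested. Titles of the recovered arrays also carry an RC code that no label explains. Oral mucosa and vagina share one such code, and oesophagus, foot pad and trachea share another. Its part in differences between recovered groups was not tested.

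All 10 groups were fitted together in limma 3.58.1 (statmod 1.5.0, R 4.3.3), with 10 residual degrees of freedom, and p-values were adjusted by Benjamini-Hochberg over 29215 probe sets. Calls needed an adjusted p under 0.05 and a fold over 2. F tests also needed a largest difference over 2-fold. The mean response was tested on the means of the 10 groups, blocked by tissue. The fit was tested on simulated data. Members, gene lists and markers were chosen with earlier results of these data known. Each member was to be named, with values on every array where called, and of other adhesion genes at most the 4 largest called changes per list and tissue. Alternatives were median centring, no dim probe sets (the lowest 40%), a trended robust variance, no fold limit, a replicate block, single tissues and leaving out each array. Sequences came from a RefSeq table (GRCr8) by gene ID. No source used here names the build of the array annotation. Precision is limited by 2 arrays per group.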

Additional observations from a re-analysis of the deposited data

Results flagged for a closer look

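The change after transplantation differed between tissues, by limma's F test and by over 2-fold, for 11 genes, and each is given with the difference between its highest and lowest change (log2). Itgb8 differed by 3.90 between foot pad and oesophagus (adjusted p = 3.33e-08) and was higher after in every tissue. Itga5 differed by 1.83 and Parvb by 1.60, with vagina the lowest in both. Itga1 differed by 1.77 and Fermt1 by 1.62, each between foot pad and vagina. Itga2 differed by 1.48 and Tln1 by 1.37, each between oral mucosa and foot pad. Itgb7 differed by 1.47 between trachea and oral mucosa, Itgb6 by 1.44 between foot pad and oral mucosa, Lamb2 by 1.37 between foot pad and oesophagus, and Itgb5 by 1.04 between trachea and foot pad. The adjusted p of the other 10 genes ran from 1.17e-05 for Itgb6 to 0.000711 for Fermt1.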

How the results depend on the processing

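Of 117 values of the 13 called changes under the alternatives, 112 kept direction and call, 5 lost the call and 0 reversed. All 5 were losses on leaving out 1 array. With the replicate block, 3 members were called in oral mucosa, 3 in vagina, 0 in oesophagus, 5 in foot pad and 2 in trachea, the same counts as without it, and no call changed. Same-numbered arrays did not deviate together (correlations from −0.15 to 0.03). With no fold limit the counts were 10 in oral mucosa, 19 in vagina, 10 in oesophagus, 19 in foot pad and 13 in trachea, 22 for differences between tissues before, 21 after, 24 for the response, and 24 before and 21 after for single tissues against the other 4. Centring each array on its median gave 8 members that differed before in place of 5, and it moved the oral mucosa changes by −0.14. Leaving out single arrays gave 3 to 5 members in vagina (5 without replicate 1 before), 0 to 1 in oesophagus (1 without replicate 2 of either stage) and 1 to 2 in trachea (1 without replicate 2 after). Without the foot pad arrays, chosen after seeing the data, 3 members differed before, 5 after and 6 in response. The cause of these shifts was not tested. The variant with another probe set per symbol was not run, since each member has 1. Without the dimmest 40% of probe sets 26 of the 39 members remained. The lack of detection calls limits what can be said of dim members.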
